A study of Mus musculus with 6 samples.

Results

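Transcripts of 49 genes of the primary cilium were followed in mouse neural stem cells after a knockdown of Mina53. The genes were chosen by name: subunits of the intraflagellar transport (IFT) trains, their motors, the BBSome, small GTPases of the ciliary membrane and proteins of the transition zone. All 49 were found among the 25996 genes of the deposited table, with 1 entry each, and all passed the filter on low values. RNA sequencing covered 6 libraries of neural stem cells labelled as kept under proliferation conditions. In 3 libraries the cells are labelled wild type and carried a control hairpin RNA (shControl), and in 3 they are labelled Mina53 knockdown and carried the shMina53 hairpin, whose target is annotated as Riox2. The labels give no strain, age or sex, no promoter for the hairpins, and no statement that replicates were separate cultures, so p-values measure the spread between these libraries, which may be technical. The labels name 1 hairpin against Mina53 without its sequence, so effects of the hairpin itself and of losing Mina53 cannot be told apart.

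The primary cilium is a single antenna-like extension of the cell membrane, built on a centriole. Proteins enter it on IFT trains: IFT-B trains are pulled outward by the kinesin-2 motor, and IFT-A acts with the dynein-2 motor in the return to the base. The BBSome is a coat that carries membrane proteins with these trains, and the transition zone is the gate at the cilium base that separates the ciliary membrane from that of the cell. In neural progenitors the primary cilium is known as the site where Hedgehog signals are received.

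Riox2 had 290.4, 333 and 307 scaled counts in the control libraries and 121, 125 and 121 in shMina53 (log2 fold change -1.34, adjusted p = 9.1e-05), so each knockdown library was low. A scaled count is the deposited value: the reads of a gene over a factor common to its library. Totals recovered from these values were 13753857 to 16811085 reads per library. The 8 neural stem cell markers, led by Vim, summed to 135057 to 155750 scaled counts in the control libraries and 133238 to 138060 in shMina53, with Slc1a3 called higher (log2 fold change 0.43, limma adjusted p = 0.0147) and Sox2 (-0.54, adjusted p = 0.00602) and Vim (-0.42, adjusted p = 0.0307) called lower. Of 6 microglial markers only P2ry12 and Csf1r were in the table, with a sum of 1.89 to 5.80 over all libraries, and the endothelial markers in the table summed to 37.6 to 67.5. The 6 neuronal markers summed to 813 to 1019 in shControl and 662 to 680.0 in shMina53 (Tubb3 called lower), and the 5 oligodendrocyte markers to 837 to 1147 and 748 to 1136 (Mbp called lower, Mobp higher).

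A minority of the genes of the cilium gate and of ciliary transport was called higher in shMina53. By limma over 21500 genes (adjusted p under 0.05), 14 of the 49 genes were called higher (28.6%), where 3.79% of all genes tested were. None was called lower, against 4.47% of all genes, and 35 were not called. Among the 9342 genes with a mean in the range of the 49, 5.5% were called higher and 7.51% lower. The called genes were 7 of the transition zone (Cep290, Tctn2, Tctn1, Nphp4, Tmem67, Tmem231 and Rpgrip1l), 3 of IFT-A (Wdr35, Ift122 and Wdr19), 2 of IFT-B (Ift74 and Ift88), the dynein-2 heavy chain gene Dync2h1 and the BBSome gene Bbs1. Their rises were moderate, 1.42-fold to 1.81-fold. The median log2 fold change of the 49 was 0.27, beside 0.02 over all genes tested, and 39 of the 49 values were positive.

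The 2 groups of libraries did not overlap for 24 genes higher in shMina53 (against 14.9% of all genes) and for 3 lower (6.12%, against 14.1%). Library by library, the median deviation of the 49 genes from their own means was -0.11, -0.15 and -0.19 log2 units in shControl and 0.10, 0.14 and 0.15 in the knockdown libraries. All 3 control libraries thus lay under all 3 knockdown libraries, while the same medians over all genes tested lay between -0.01 and 0.01. At an unadjusted limma p under 0.05, 23 of the 49 were higher and 3 lower (Arl3, Ift43 and Bbs10). The share of all genes at this unadjusted threshold is not given here, so these counts cannot be set against it. edgeR and DESeq2 on the recovered reads each called the same 14 genes higher and 1 lower, Arl3, where edgeR called 5.46% of its genes higher and 6.48% lower and DESeq2 6.62% and 8.68%.

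How many of these calls stood depended on single libraries. The count of genes called higher was 6 without shControl 2 (1.47% of all genes), 6 without shMina53 1 (1.82%), 4 without shMina53 2 (0.986%) and 5 without shMina53 3 (1.04%), against 14 without shControl 1 (6.42%) and 15 without shControl 3 (5.6%). Wdr35, Bbs1 and Tctn2 were called in all 6 of these fits. Where the trend and robust steps of limma were left out, 0.0837% of all genes were called higher and none of the 49 was. The 49 include 1 gene called lower without shControl 1 (Arl3, 6.52% of all genes), without shControl 3 (Kif3a, 5.99%) and without shMina53 1 (Arl3, 3.01%), and none without shControl 2 (1.54%), shMina53 2 (1.61%) or shMina53 3 (1.26%).

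**Figure D1:**
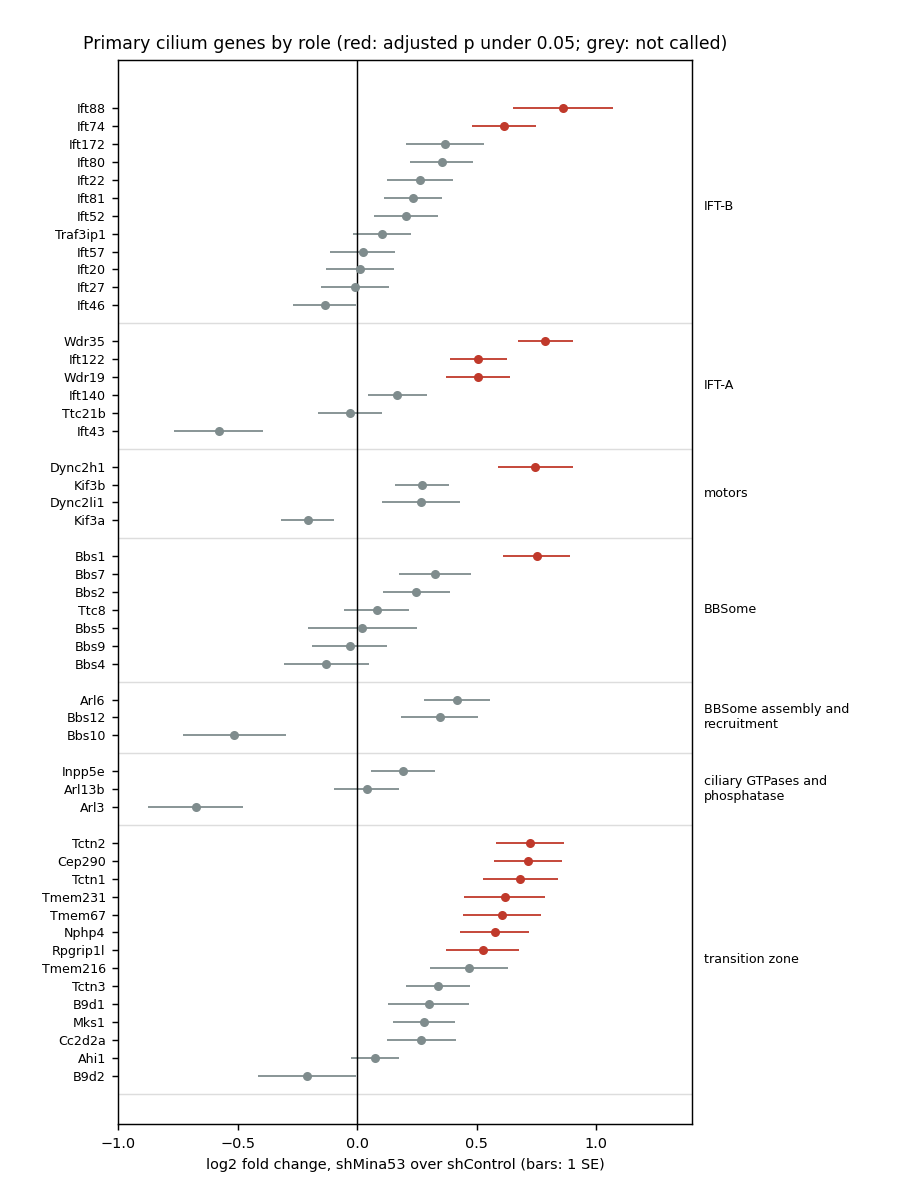
Log2 fold change of shMina53 over shControl (x axis) for each of the 49 genes, grouped by role, with bars of 1 standard error and 3 libraries per group. Red points mark the 14 genes with an adjusted limma p under 0.05; the transition zone holds 7 of them, and Arl3, Ift43 and Bbs10 lie farthest to the left.

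Promoter sequences of some of these genes are shown for context. RFX transcription factors, known regulators of ciliary genes, bind the X-box, which is made of a pair of half-sites. RefSeq windows (GRCm38.p6, 300 bases each, from 250 before to 50 after a transcript start) were matched for 44 of the 49 genes. The half-site GTTGCC, on either strand, was in the window of 22 of these 44 genes and of 14.1% of all 27025 genes with a window. The paired form, GTTNCC and GGNAAC with 0 to 3 bases between them, was found for 6 of the 44 (13.6%) and for 0.936% of all genes. Half-sites and pairs can overlap, and a match is a description of letters only. Of the 12 called genes with a window 8 held a half-site, and of the 32 not called 14 did. The paired form ran the other way, with 1 of the 12 called and 5 of the 32 not called, and neither difference was tested. Matches that ended more than 30 bases after the transcript start were not printed. In Bbs1, Tctn2, Nphp4 and Ift88 the printed match begins 1, 13, 1 and 21 bases after that start, and in the others before it. The stretches below show matches in 5 called genes, then pairs in 3 genes that were not called, with the matched letters in capitals (1 of the matches in Tmem231), 5′ to 3′ on the strand of the gene.
Bbs1 (chr19:4906598-4906656, minus strand): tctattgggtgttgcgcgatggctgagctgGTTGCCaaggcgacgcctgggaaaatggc
Tctn2 (chr5:124598732-124598778, plus strand): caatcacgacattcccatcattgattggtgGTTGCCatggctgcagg
Nphp4 (chr4:152478113-152478171, plus strand): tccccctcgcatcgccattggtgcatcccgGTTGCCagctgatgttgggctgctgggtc
Ift88 (chr14:57424062-57424100, plus strand): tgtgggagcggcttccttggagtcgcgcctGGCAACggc
Tmem231 (chr8:111933882-111933947, minus strand): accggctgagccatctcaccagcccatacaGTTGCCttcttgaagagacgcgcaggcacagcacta
Mks1 (chr11:87853161-87853234, plus strand): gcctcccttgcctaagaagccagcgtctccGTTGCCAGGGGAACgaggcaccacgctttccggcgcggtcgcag
Tctn3 (chr19:40612329-40612401, minus strand): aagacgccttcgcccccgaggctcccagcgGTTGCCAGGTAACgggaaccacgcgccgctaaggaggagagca
Bbs7 (chr3:36613467-36613540, minus strand): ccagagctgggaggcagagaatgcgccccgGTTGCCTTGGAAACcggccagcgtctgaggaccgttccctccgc

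Among the transition zone genes 7 of 14 were called higher, 7 were not called, and the median log2 fold change was 0.50. Cep290 (ENSMUSG00000019971; chromosome 10, 100487558 to 100574840, plus strand), whose large coiled-coil protein links the ciliary membrane to the microtubules of the gate, had 215, 229.7 and 198 scaled counts in the control libraries and 325, 399.6 and 335 in shMina53. Every knockdown library was above every control library, with means of 214 ± 15.8 and 353 ± 40.4 (SD, n = 3) and a log2 fold change of 0.72 (SE 0.141, limma adjusted p = 0.00538). It was not called without shMina53 2 (adjusted p = 0.0616). Cep290 shares 881 exon bases with 4930430F08Rik on the other strand (log2 fold change 0.08, not called), and the strand setting of the counting is not given in the sources used here.

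The tectonics are a family of gate proteins with 3 members in the mouse. Tctn2 (ENSMUSG00000029386; chromosome 5, 124598749 to 124627738, plus strand) had 163, 166 and 188 scaled counts in the control libraries and 296, 268 and 290.3 in shMina53 (log2 fold change 0.72, SE 0.143, adjusted p = 0.00563). This was a clear gap between the groups, and the call stood with any 1 library left out (largest adjusted p 0.0419). Tctn1 (ENSMUSG00000038593; chromosome 5, 122237848 to 122264460, minus strand) had 158, 160.1 and 124 in shControl and 244, 236 and 228 in shMina53 (0.68, SE 0.157, adjusted p = 0.0137). The groups were again apart, but the call was lost with any 1 of the shMina53 libraries left out (largest adjusted p 0.0742). Tctn1 shares 1574 exon bases, 19.0% of its own, with Hvcn1 on the other strand (log2 fold change 0.36, not called). Hvcn1 had a mean of 9.12 scaled counts over the libraries, beside 192 for Tctn1. Tctn3, with 289, 308 and 287 against 325, 414 and 384, was not called (0.34, adjusted p = 0.134), although its groups did not overlap either. Whether the 3 tectonics differ in their response was not tested.

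Tmem67 (meckelin) and Tmem231 are membrane proteins of the gate. Tmem231 (ENSMUSG00000031951; chromosome 8, 111912011 to 111933881, minus strand) had 96.2, 93.4 and 96.8 scaled counts in the controls against 154, 146 and 141 in shMina53 (0.62, SE 0.169, adjusted p = 0.0328). Tmem67 (ENSMUSG00000049488; chromosome 4, 12039355 to 12090020, minus strand) had 124, 140.1 and 116 against 181, 182 and 220.3 (0.61, SE 0.164, adjusted p = 0.0311). Both were separated between the groups, and both lost their call with shControl 2 or any 1 shMina53 library left out (largest adjusted p 0.137 and 0.154). Tmem67 shares 289 exon bases with Rbm12b2 on the other strand (log2 fold change -0.13, not called). The third such gene, Tmem216, had 121, 108 and 119 against 156, 171 and 155 (0.47, adjusted p = 0.0896), with no overlap but no call. It shares 169 bases with the far more abundant Cpsf7 on the other strand (-0.10, not called).

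Nphp4 and Rpgrip1l encode scaffold proteins that bind each other in the gate. Nphp4 (ENSMUSG00000039577; chromosome 4, 152476706 to 152563183, plus strand) had 276, 255 and 205 scaled counts in the control libraries and 378, 382 and 333 in shMina53 (0.58, SE 0.145, adjusted p = 0.022). Rpgrip1l (ENSMUSG00000033282; chromosome 8, 91217030 to 91313262, minus strand) had 217, 204 and 158 against 272, 271 and 285 (0.53, SE 0.153, adjusted p = 0.0425). In both genes shControl 3 was the lowest library and the groups did not overlap. Nphp4 was not called with shControl 2 or any 1 shMina53 library left out (largest adjusted p 0.124), and Rpgrip1l was called only in the fit without shControl 1 (up to 0.16 in the others).

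The other gate genes had smaller values. Mks1, B9d1 and B9d2 encode the 3 B9-domain proteins, which form a complex: Mks1 had a log2 fold change of 0.28, B9d1 of 0.30 and B9d2 of -0.21, none called (adjusted p = 0.205, 0.302 and 0.579). Cc2d2a, a partner of the tectonics, had 731, 675 and 475 scaled counts against 791, 735 and 705 (0.27, adjusted p = 0.277); shControl 3 was far under the other controls. Ahi1 (jouberin), the most abundant of the 49 by scaled counts and of the gate genes per kilobase of exon (254 in shControl), had 1774, 1798 and 1803 against 1833, 1898 and 1932 (0.07, adjusted p = 0.708). Its groups did not overlap, but the difference was smaller than its standard error of 0.101.

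**Figure D2:**
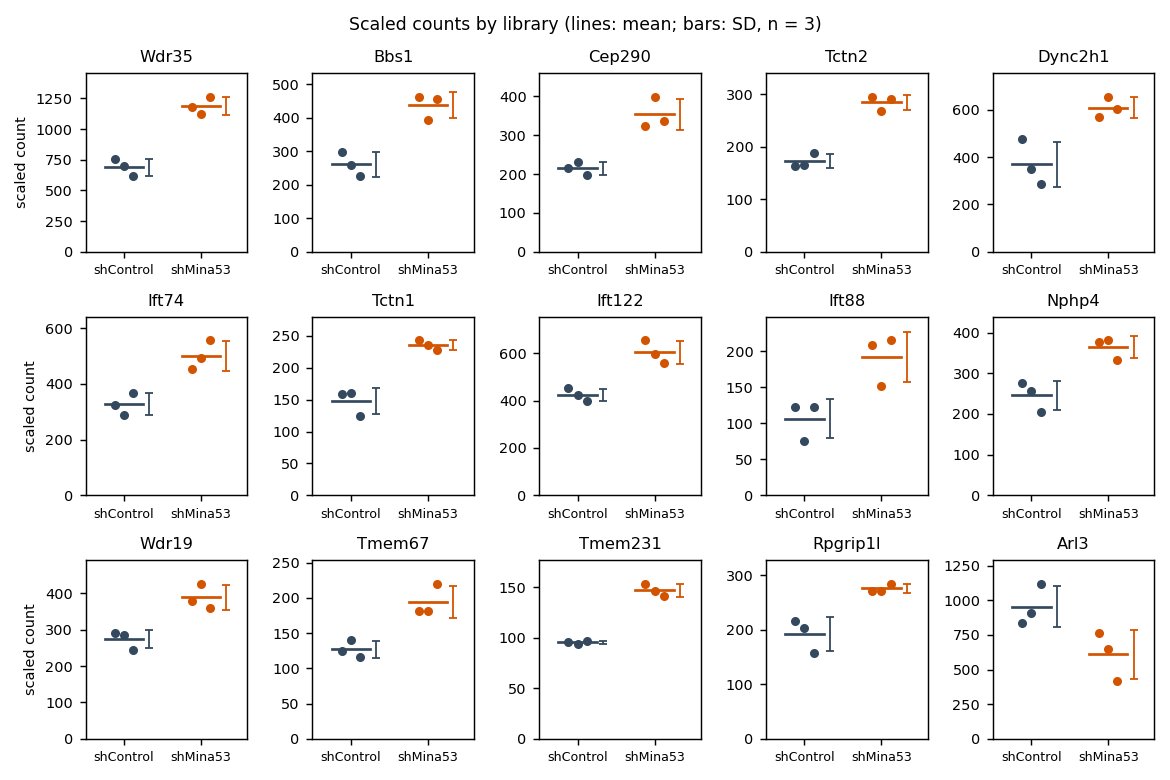
Scaled counts (y axis, from 0) of the 14 called genes, in order of adjusted p, and of Arl3, in shControl and shMina53. Points are libraries, lines the means and bars the SD over 3 libraries; in the 14 called genes every shMina53 point is above every shControl point, and in Arl3 every one is under them.

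IFT-A genes went both ways, with 3 of 6 called higher and a median log2 fold change of 0.34. Wdr35 (IFT121; ENSMUSG00000066643; chromosome 12, 8973892 to 9028847, plus strand) had the smallest adjusted p of the 49 genes. Its scaled counts were 754, 699 and 614 in shControl and 1178, 1119.9 and 1265 in shMina53, means of 689 ± 70.5 and 1188 ± 73.0 (SD, n = 3). The gap was far wider than either group, with a log2 fold change of 0.79 (SE 0.116, limma adjusted p = 0.000667), and the call stood in all 6 fits without 1 library (adjusted p up to 0.0159).

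Ift122 (ENSMUSG00000030323; chromosome 6, 115853470 to 115926699, plus strand) and Wdr19 (IFT144; ENSMUSG00000037890; chromosome 5, 65199696 to 65260415, plus strand) encode other subunits of IFT-A. Ift122 had 452, 423 and 399 scaled counts against 656, 599 and 559 (0.51, SE 0.121, adjusted p = 0.0162). Wdr19 had 291, 284 and 245 against 379.9, 427 and 360.3 (0.51, SE 0.135, adjusted p = 0.0284). Neither overlapped between the groups. Ift122 lost its call with shControl 2, shMina53 1 or shMina53 2 left out (largest adjusted p 0.0902), and Wdr19 without shControl 2 or any 1 shMina53 library (up to 0.177).

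Ift43, a small subunit of the same complex and its most abundant gene per kilobase (119 in shControl), lay on the other side. It had 186, 160.1 and 241 scaled counts in the control libraries and 155, 111 and 124 in shMina53 (-0.58, SE 0.187, adjusted p = 0.0654). All knockdown libraries were under all controls, but the difference did not pass the threshold in any fit without 1 library. Ift140 (0.17) and Ttc21b (IFT139; -0.03) were not called, with adjusted p = 0.451 and 0.926.

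Of the 12 IFT-B genes 2 were called higher, and the median log2 fold change was 0.22. Ift74 (ENSMUSG00000028576; chromosome 4, 94614491 to 94693229, plus strand), which with Ift81 forms the part of the train that binds tubulin, had 323, 289.8 and 368 scaled counts in the control libraries and 452, 493 and 558 in shMina53 (0.62, SE 0.135, adjusted p = 0.0104). Ift81 itself had 429.95, 438 and 438 against 499.8, 479.5 and 559 (0.23, adjusted p = 0.249) and was not called, though its groups did not overlap. Whether the partners differ was not tested. Ift74 was not called with shControl 2, shMina53 2 or shMina53 3 left out (largest adjusted p 0.0838).

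Ift88 (polaris; ENSMUSG00000040040; chromosome 14, 57424062 to 57517936, plus strand), a core subunit needed for cilium assembly, had the largest fold change of the 49, 1.81-fold. Its scaled counts were 123, 75.3 and 122 in shControl and 209, 152 and 216 in shMina53 (0.86, SE 0.209, adjusted p = 0.0186). In each group library 2 was the lowest, and the groups did not overlap. The call was lost with shControl 2, shMina53 1 or shMina53 3 left out (largest adjusted p 0.134). The log2 fold change was lowest without shControl 2 (0.63) and highest without shMina53 2 (1.02).

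None of the other train subunits was called, and their log2 fold changes ran from -0.13 to 0.37. Ift20, which also works at the Golgi and was the most abundant of the group per kilobase (220.3 in shControl), had 303, 311 and 395 scaled counts against 327, 313 and 372, a log2 fold change of 0.01. Ift27 and Ift22, small GTPases of the train, had -0.01 and 0.26, and Ift57 had 0.02. Ift46 had the lowest value of the group, -0.13, and Traf3ip1 (IFT54) had 0.10, Ift52 0.20, Ift80 0.35 and Ift172 0.37, with adjusted p from 0.111 (Ift80) to 0.979 (Ift27). In Ift80 and Ift81 the groups were apart, and in the other 8 they overlapped.

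Of the motor genes, Dync2h1 (ENSMUSG00000047193; chromosome 9, 6928503 to 7184446, minus strand), the heavy chain of dynein-2, was called higher. It had 475, 349.8 and 287 scaled counts in the control libraries and 568, 657 and 605 in shMina53, means of 371 ± 95.6 and 610.3 ± 44.5 (SD, n = 3, log2 fold change 0.75, SE 0.157, limma adjusted p = 0.00787). The controls were widely spread but all under the knockdown libraries, and the call was lost with shMina53 2 or shMina53 3 left out (largest adjusted p 0.0674). Its light intermediate chain gene Dync2li1 had 204, 255 and 329 against 315, 327 and 289 and overlapped (0.27, adjusted p = 0.347); without shControl 3 it was called (0.44, adjusted p = 0.0333).

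The kinesin-2 genes had opposite signs. Kif3b had 1039, 929 and 860.5 scaled counts in the control libraries and 1108, 1106 and 1193 in shMina53 (0.27, adjusted p = 0.148). Kif3a, the most abundant motor gene per kilobase (376 in shControl), had 1428, 1405 and 1213 against 1129, 1113 and 1256 (-0.21, adjusted p = 0.275). Kif3b was apart between the groups and Kif3a was not, since shControl 3 lay inside the knockdown range. Without shControl 3, Kif3a was called lower (-0.28, adjusted p = 0.0437).

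Among the 7 BBSome subunit genes Bbs1 alone was called, and the median log2 fold change was 0.08. Bbs1 (ENSMUSG00000006464; chromosome 19, 4886878 to 4906628, minus strand), the subunit that binds the GTPase Arl6 at the membrane, had 299, 258 and 225 scaled counts in the control libraries and 463, 394 and 456 in shMina53. Its means were 261 ± 36.8 and 438 ± 37.8 (SD, n = 3, log2 fold change 0.75, SE 0.140, limma adjusted p = 0.00394), with no overlap and a call in all 6 fits without 1 library (adjusted p up to 0.0419). Bbs7 (0.33), Bbs2 (0.25), Ttc8 (BBS8; 0.08), Bbs5 (0.02), Bbs9 (-0.03) and Bbs4 (-0.13) were not called, with adjusted p from 0.198 (Bbs7) to 0.967 (Bbs5). Bbs2 was the most abundant subunit gene per kilobase, with 89.0 in shControl and 105 in shMina53. The difference between Bbs1 and the other subunits was not tested.

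Genes for BBSome assembly and recruitment were not called. Arl6 (BBS3), the GTPase that brings the BBSome to membranes, had 277, 264 and 351 scaled counts in the control libraries and 383, 388 and 415 in shMina53 (0.42, SE 0.139, adjusted p = 0.0729). The groups were apart, and Arl6 was called without shControl 3 (0.54, adjusted p = 0.00269). Bbs12 and Bbs10 encode chaperonin-like proteins that help to fold BBSome subunits, and they had opposite signs. Bbs12 had 169, 144 and 138 against 176, 184 and 213 (0.34, adjusted p = 0.203), and Bbs10 had 92.4, 95.3 and 95.8 against 55.1, 60.2 and 85.8 (-0.52, adjusted p = 0.154).

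Arl3, a GTPase that releases lipid-anchored cargo inside the cilium, had the largest difference in the lower direction. It was the most abundant of the 49 per kilobase (383 in shControl, 245 in shMina53), with 833, 911 and 1121 scaled counts in the control libraries and 764, 652 and 418 in shMina53. The groups did not overlap, and shControl 3 and shMina53 3 were the extremes. The log2 fold change of -0.68 (SE 0.198) did not pass limma (adjusted p = 0.0589) but passed edgeR (adjusted p = 0.0466) and DESeq2 (adjusted p = 0.00905). It passed limma without shControl 1 (-0.77, adjusted p = 0.047) or shMina53 1 (-0.86, adjusted p = 0.0191), and without shControl 3 or shMina53 3 it had adjusted p up to 0.379. Arl13b, the GTPase that activates Arl3, had 398, 431 and 337 against 358, 403 and 436 (0.04, adjusted p = 0.896). Inpp5e, the phosphatase that sets the lipids of the ciliary membrane, had 361, 329 and 276 against 367, 378 and 352 (0.19, adjusted p = 0.426), and both overlapped between groups. Inpp5e shares 874 exon bases, 20.3% of its own, with the more abundant Pmpca on the other strand.

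Gene length moved with the comparison. The 11382 protein-coding genes whose mean reached 50 were split by exon length into 4 classes of like size. Their median log2 fold change was -0.21 in the shortest class (up to 3098 bases), -0.05 and 0.03 in the middle classes and 0.13 in the longest (from 7320 bases). The 14 called cilium genes had a median exon length of 8019.5 bases and the 35 others 3608. Spearman's rho of fold change and length was 0.46 over the 49 genes and 0.40 over the 11382 protein-coding genes. Both are given as a description across genes that share their libraries.

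Within each class the median of the cilium genes was above that of all genes: 0.02 for 14 genes in the shortest, 0.25 for 10, 0.27 for 13 and 0.57 for 12 in the longest. From the shortest class to the longest, 1, 1, 3 and 9 cilium genes were called higher, where 2.07%, 4.01%, 7.14% and 9.91% of all genes of the class were. No cilium gene was called lower in any class, where 14.9%, 7.98%, 4.57% and 2.67% of all genes were.

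With the length trend removed from each library, 16 of the 49 genes were called higher (5.59% of all genes) and 0 lower (4.73%), and 12 of the 14 calls remained. Wdr19 (0.36, adjusted p = 0.0569) and Rpgrip1l (0.33, adjusted p = 0.104) dropped out. Arl6 (0.62, adjusted p = 0.00206), Dync2li1 (0.49, adjusted p = 0.0175), Tmem216 (0.57, adjusted p = 0.027) and Tctn3 (0.44, adjusted p = 0.0323), with exon lengths of 1869 to 3281 bases, came in. The lower values of Arl3 and Ift43 shrank to -0.51 (adjusted p = 0.0778) and -0.33 (adjusted p = 0.214).

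**Figure D3:**
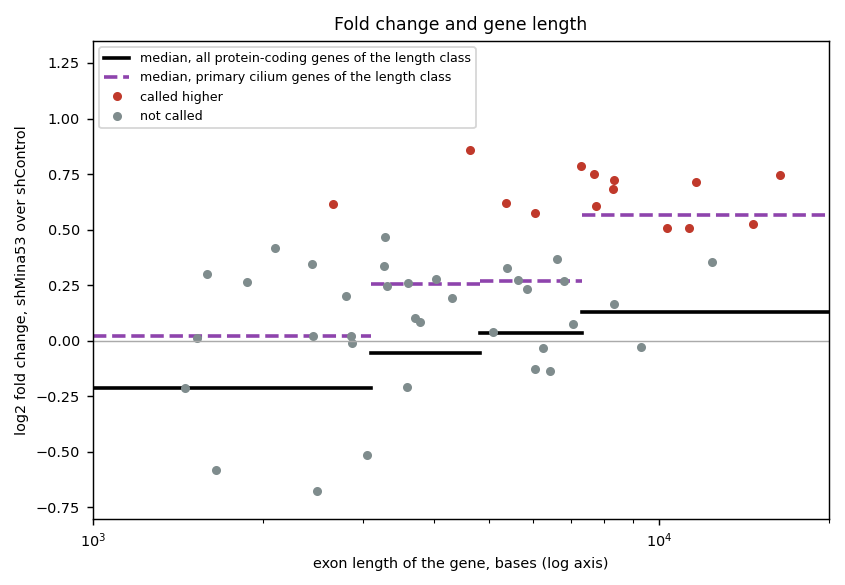
Log2 fold change of shMina53 over shControl (y axis) against the exon length of each of the 49 genes (log axis, in bases), red where called. Black lines are medians of all protein-coding genes in 4 classes of length, from -0.21 to 0.13, and dashed lines those of the cilium genes, which lie above them in every class.

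Some marker genes of motile cilia were also called higher. Multiciliated ependymal cells use the same transport genes for their motile cilia, and 16 of 17 ependymal markers were in the table (Tmem212 was not). Their summed level was 415 to 425 scaled counts in the shControl libraries and 640.4 to 751 in shMina53, so the groups did not overlap. Foxj1, the transcription factor of motile cilia, made up most of the sum and rose from 228 ± 16.8 to 409 ± 62.2 (SD, n = 3, log2 fold change 0.83, limma adjusted p = 0.00243). The axonemal genes Dnah9 (4.71 ± 4.32 to 24.9 ± 5.58) and Tekt1 (4.41 ± 3.57 to 16.1 ± 2.71) and Ak7 (0.631 ± 0.546 to 7.60 ± 0.771) were called higher too. With Foxj1 these were 4 of the 16 in all, where 3.79% of all genes tested were called higher. The calls of Dnah9, Tekt1 and Ak7 rest on few reads, and fits without 1 library are not given for the markers. Ak7 had 0, 0.953 and 0.939 scaled counts in the control libraries, where 1 read is 0.943, 0.953 and 0.939. The 11 others tested were not called, and Mcidas was under the filter on low values. Mcidas, which starts the multiciliated programme, had means of 0.318 and 0.322, and the dynein gene Dnah5 5.67 and 6.74 (0.08, not called). The part of these genes in the calls among the primary cilium genes was not tested, and in bulk RNA a change in the number of such cells and a change of RNA per cell cannot be told apart.

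**Figure D4:**
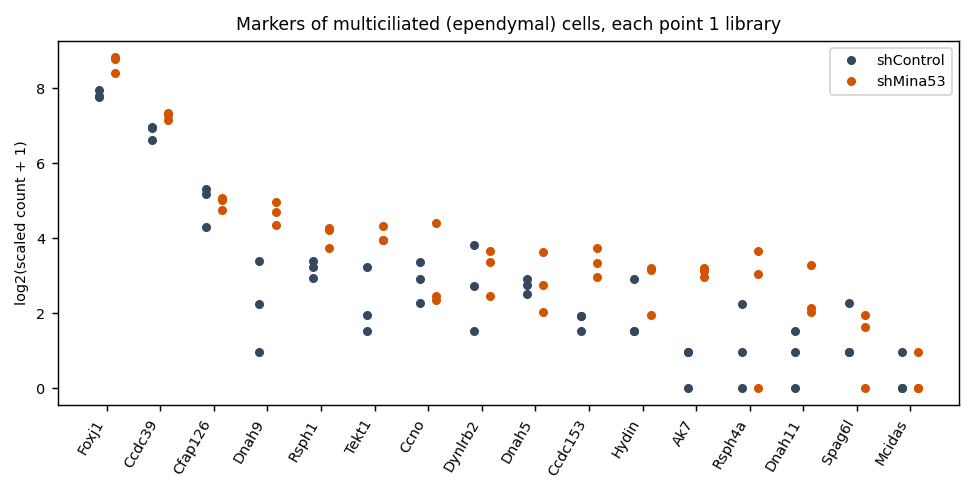
Log2 of the scaled count plus 1 (y axis) of the 16 ependymal markers in the table, in order of mean level, with 1 point per library in shControl and shMina53. Foxj1 is the highest and is separated between the groups, whereas most other markers lie at a few scaled counts.

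The rest of the ciliary machinery was read from a list of 69 names of other cilium genes. The list held 1 gene under 2 names, and its 68 genes were all in the table and tested. Of these 68, 7 were called higher (10.3%, against 3.79% of all genes) and 2 lower (2.94%, under the 4.47% of all genes), with a median log2 fold change of 0.17. Cep41, of the basal body and of tubulin modification in the axoneme, had 343, 281 and 299 scaled counts in the control libraries and 476, 486 and 491 in shMina53 (0.66, adjusted p = 0.00471) and was called in all 6 fits without 1 library (adjusted p up to 0.0432). Lztfl1, a regulator of BBSome traffic, had 272, 321 and 299 against 392.5, 461 and 575 (0.66, adjusted p = 0.011). Both genes were apart between the groups, but Lztfl1 was not called with shMina53 2 or shMina53 3 left out (largest adjusted p 0.0917).

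Also called higher were Invs (0.54), listed here with the gate genes, and the centriole genes Ofd1 (0.59) and Ccp110 (0.51). Rabl2 (0.50), a GTPase that binds IFT-B, was called higher too. Ccp110 caps centrioles and restrains cilium assembly, and went from 588 ± 86.4 to 831 ± 33.6 scaled counts. Ofd1 had 149, 139 and 149 against 225, 209 and 226. Each of these 4 lost its call with shControl 2 or any 1 shMina53 library left out, as did Invs with shControl 3 left out (largest adjusted p 0.18).

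Lower were Pde6d and Aurka. Pde6d, the carrier of lipid-anchored cargo that Arl3 unloads, had 735, 798 and 954 scaled counts in the control libraries and 577, 606 and 497 in shMina53 (-0.56, adjusted p = 0.0133). It was not called with shControl 2 or shMina53 3 left out (largest adjusted p 0.0998). Aurka, a mitotic kinase that also drives cilium disassembly, had 469, 540.5 and 504 against 408, 360.2 and 329 (-0.47, adjusted p = 0.0338), and missed the threshold with shControl 2, shMina53 2 or shMina53 3 left out (up to 0.159), nor with the length trend removed (adjusted p = 0.0987). By role, 3 of 15 basal body genes, 2 of 13 gate genes, 1 of 12 transport genes and 1 of 4 BBS genes were higher. Of the 15 membrane and signalling genes 1 was lower (Pde6d), and of the 4 disassembly genes 1 (Aurka). Over all genes tested 3.79% were called higher and 4.47% lower. Differences between the roles were not tested.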

How the data were processed

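RNA sequencing of 6 libraries was analysed, 3 shControl and 3 shMina53. Per the submitters' processing notes, the tools were HISAT2 2.0.4, StringTie 1.3.4d, CASAVA, UMI-tools, edgeR and DESeq2, with the mm10 build. Their roles, any removal of duplicate reads and counting by strand are not given in the sources used here. The deposited signal per gene was the reads of a gene over a factor common to its library, so whole reads could be recovered for all values within a tolerance of 0.01. limma 3.58.1 (R 4.3.3), with trend and robust steps, was run on log2(scaled count + 1) where the mean of a gene reached 1, so fold changes are on that scale. p-values were adjusted by the Benjamini-Hochberg method over all genes tested, with a threshold of 0.05. edgeR 4.0.16 and DESeq2 1.42.0 were run on the recovered reads. The length trend was removed in each library by lowess (span 0.3) on protein-coding genes whose mean reached 50. Positions and exon lengths are from GENCODE on mm10, 1-based. The main limma fit was tested on simulated data, and the other fits were not. The genes and lists were chosen with earlier results of these data known. The genes named in full were Riox2, those called, the most abundant per kilobase in each role, and the largest differences not called. The values of 1 called gene of the other cilium list are not reported here.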

Additional observations from a re-analysis of the deposited data

How the results depend on the processing

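The 14 cilium genes called higher stayed 14 with a pseudocount of 0.5 or 5, no filter, a minimum mean of 10, TMM scaling, edgeR and DESeq2, and no fold change of a called gene changed sign under any alternative. limma without trend and robust steps called 0 of the 49. Leaving out 1 library gave 4 to 15 called higher and 0 to 1 called lower. The count called lower was 1, Arl3, with a minimum mean of 10, with edgeR and with DESeq2. Of the 68 other cilium genes, 7 called higher became 0 without trend and robust steps, 4 with the replicate block and 1 to 14 without 1 library. The 2 called lower became 0, 1 and 0 to 4 under the same alternatives, and 1 with the length trend removed. The causes were not tested. Same-numbered libraries did not resemble each other throughout: their deviations from group means correlated at -0.15, 0.11 and 0.02 over 12053 genes. shControl 1 correlated better with shMina53 3 (0.08) than with its own number, whereas the 0.11 of the libraries numbered 2 was the highest of all pairs. Deviations from a mean of 3 libraries are tied to each other, so these values do not settle whether the numbers pair the libraries. With the replicate number as a block, 11 of the 14 calls remained, without Rpgrip1l, Tmem231 and Tmem67. The share of all genes called is not given here for the block, the other pseudocounts, the other filters or TMM scaling. Whether those counts moved with the whole set of genes was therefore not read. Summing several entries of 1 symbol was not run, since 0 of the 49 had several. Between 191 and 5687 reads per group stood behind each of the 49 genes.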

Other observations

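Of the 49 cilium genes, 10 had a neighbour on the opposite strand whose start lay within 1000 bases. Of these 10 neighbours Tmtc3 alone was called, where 3.79% of all genes tested were called higher and 4.47% lower. Tmtc3 starts 208 bases from Cep290 and was higher in shMina53 (log2 fold change 0.65, limma adjusted p = 0.00412). A link between these genes was not tested. Dcun1d5, 74 bases from Dync2h1, had -0.21, and Fto, 263 bases from Rpgrip1l, had -0.16, neither called.

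Genes that read out Hedgehog signalling gave unequal values. Hhip, a Hedgehog-binding protein and target of the pathway, had 145, 157 and 116 scaled counts in the control libraries and 239.8, 255 and 253 in the knockdown (0.84, limma adjusted p = 0.00412), and was called in all 6 fits without 1 library. Ptch1, the Hedgehog receptor and also a target, had 2619, 2309 and 1804 against 2548, 2631 and 2644 (0.23, adjusted p = 0.277), with overlapping groups. Gli1, a further target, was close to undetected, with 7 reads in shControl and 19 in shMina53 over 3 libraries each. Its groups did not overlap, but at this depth its log2 fold change of 1.12 was not called (limma adjusted p = 0.26).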
